A study of Mus musculus with 30 samples.

Results

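Interferon-stimulated genes are switched on in most cells when interferon binds its receptor, and 37 of them were followed here in the Achilles tendon and the calcaneus (heel bone) of mice. The members were the rows of the count table that carry the symbols of a list of interferon-stimulated genes. All 37 were found among the 55426 genes of the table, and all 37 passed the filter on low counts in both tissues. They comprised 9 GTPases known mainly for their response to interferon-gamma (Irgm1, Irgm2, Igtp, Iigp1, Gbp2, Gbp3, Gbp5, Gbp6, Gbp7) and 19 antiviral effectors of the type I interferon response (Ifit1, Ifit2, Ifit3, Ifit3b, Isg15, Oas1a, Oas2, Oas3, Oasl1, Oasl2, Mx1, Mx2, Rsad2, Usp18, Ifi44, Ifih1, Bst2, Xaf1, Rtp4). The other 9 were 4 transcription factors (Irf1, Irf7, Irf9, Stat2), 3 genes of antigen processing (Psmb8, Psmb9, Tap1) and 2 chemokines (Cxcl9, Cxcl10).

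The study used light-driven (optogenetic) muscle contraction to load the tendon and bone, and measured RNA by poly-A sequencing. Every sample, controls included, had the genotype label Acta1,Ai32, in which Ai32 is a reporter allele that carries channelrhodopsin and Acta1 is the skeletal muscle actin gene. Each tissue had 5 groups of 3 samples: naive at day 0, unstimulated at day 5, stimulated at day 5, unstimulated at day 12 and stimulated at day 12. Sample titles call the stimulated as well as the unstimulated samples controls, and the labels used here give neither age, sex nor strain, nor whether samples came from separate animals, so p-values measure only a spread between samples that may be technical.

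Type I interferons bind the receptor of which Ifnar1 is a subunit, and signal through a complex with Stat2 and Irf9 that binds the interferon-stimulated response element in gene promoters. Interferon-gamma binds the receptor of which Ifngr1 is a subunit, and its signal reaches promoters at the gamma-activated sequence. The antiviral effectors are targets mainly of the first route and the GTPases of the second, although many genes answer to both, and bone marrow cells are known to express many of these genes without infection.

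Depth was 24488997 to 44566322 counts per sample in tendon and 19255983 to 35035536 in bone. Samples 1 and 2 of unstimulated bone at 5 days differed by a biological coefficient of variation of 2.638%, against 8.88% to 33.23% in the other 29 pairs of replicates, and were summed and counted as 1 sample, which leaves 29 libraries. Levels are CPM, the counts of a gene per fixed total of counts in its library, scaled within a tissue by TMM (trimmed mean of M-values) factors, and fold changes are log2 differences ± standard error (SE). A member rose or fell where edgeR's quasi-likelihood test gave a Benjamini-Hochberg adjusted p under 0.05 over all genes tested, 17108 in tendon, 18851 in bone and 19845 in fits over both tissues. Counts of members or pathway genes at an unadjusted p under 0.05 are given without the share of all genes at that cut. Counts from other tools, other scalings or fits without 1 library are also given without that share. Neither kind of count can show whether the members differ from other genes. In bulk tissue, fewer cells of a type and less RNA per cell cannot be told apart. Each tissue held its own cells and others: summed over marker lists, tendon libraries held 430 to 2930 CPM of 7 tendon fibroblast markers but also 83800 to 188000 CPM of 10 muscle fibre markers, and bone libraries held 25200 to 53500 CPM of 8 osteoblast markers and 79.4 to 403 CPM of 9 B cell markers. Bone libraries also held 136 to 31300 CPM of the muscle fibre markers and 3980 to 53000 CPM of 8 erythroid markers. They held 760 to 4190 CPM of the 7 tendon fibroblast markers too, so that sum does not by itself set tendon apart from bone. No marker of these lists was at 0 in every library of the tissue named.

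The promoters of 6 members on which the results turn are shown first, because they carry the motifs through which interferon signals are known to reach these genes. RefSeq start sites were available for 30 of the 37 members. Each line gives the 140 bases before the start, on the gene's strand, in build GRCm38.p6. Capitals mark the core of the interferon-stimulated response element (GAAA, NN, GAAA, on either strand), and in Irgm2 and Igtp also the core of the gamma-activated sequence, TTCNNNGAA.
Irgm2 (chr11:58214837-58214976, plus strand): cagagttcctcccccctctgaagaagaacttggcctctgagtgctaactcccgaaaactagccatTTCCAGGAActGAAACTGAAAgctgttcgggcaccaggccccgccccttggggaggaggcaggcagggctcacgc
Igtp (chr11:58199416-58199555, plus strand): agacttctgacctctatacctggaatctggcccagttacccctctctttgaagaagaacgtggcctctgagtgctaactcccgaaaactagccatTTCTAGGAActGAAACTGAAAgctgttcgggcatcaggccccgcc
Isg15 (chr4:156200819-156200958, minus strand): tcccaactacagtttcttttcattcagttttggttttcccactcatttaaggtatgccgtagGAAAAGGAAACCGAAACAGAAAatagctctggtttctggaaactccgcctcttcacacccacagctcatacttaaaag
Oas3 (chr5:120777660-120777799, minus strand): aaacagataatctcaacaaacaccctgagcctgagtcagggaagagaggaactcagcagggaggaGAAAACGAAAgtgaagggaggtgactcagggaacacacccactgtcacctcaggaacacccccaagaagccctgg
Rsad2 (chr12:26456453-26456592, minus strand): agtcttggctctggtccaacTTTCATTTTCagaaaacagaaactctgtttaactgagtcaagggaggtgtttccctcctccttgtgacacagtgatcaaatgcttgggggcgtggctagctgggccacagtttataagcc
Ifit1 (chr19:34640749-34640888, plus strand): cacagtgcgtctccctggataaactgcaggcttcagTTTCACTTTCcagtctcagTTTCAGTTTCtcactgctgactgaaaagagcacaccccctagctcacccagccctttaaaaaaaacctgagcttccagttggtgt

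Irgm2 and Igtp carried both motifs next to each other, with the response element beginning 64 bases before the start of Irgm2 and 34 bases before that of Igtp. Lined up on this element, the 2 windows were identical at 184 of 270 bases, with an unbroken identical run of 61 bases. Isg15 held 3 overlapping copies of the response element core within 1 stretch, Ifit1 held 2 separate copies, and Oas3 and Rsad2 held 1 each. In windows of 300 bases (250 before the start, 50 after), 18 of the 34 member promoters (52.9%), each of a different gene, held the response element core. They belonged to all 7 GTPases with a RefSeq start, 9 of 14 antiviral effectors, 1 of 4 transcription factors, 0 of 3 antigen processing genes and 1 of 2 chemokines. Among all 32544 promoters of the table, 3.45% held it. The gamma-activated sequence core stood in 9 of the 34 member promoters, counting each start of a gene, 4 of them among the 7 GTPases and 3 among the 14 antiviral effectors (Bst2, Ifit2 and Oas1a), against 8.33% of all promoters. Irgm1, Gbp2 and Gbp3 lacked it in this window. Oasl1, Oasl2, Irf7, Irf9 and Tap1, all among the members that fell in unstimulated bone at 12 days, held neither core in this window. A match describes letters in a window, and nothing about binding was measured here.

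Naive tendon and naive bone were compared with both tissues scaled together. Of the 37 members, 7 were higher in tendon, 18 were lower and 12 did not pass, beside 33.3% of all genes tested that were higher and 35% that were lower. The 25 members called in either direction stand beside 68.4% of all genes, so the number of calls does not set the members apart. By class, 5 of the 9 GTPases were higher in tendon and 1 was lower, 2 of 19 antiviral effectors were higher and 10 lower, and all 4 transcription factors and all 3 antigen processing genes were lower, and a difference between classes was not tested. With total counts as the only scaling, which moved the median of all genes by -0.54, 1 GTPase was higher and 1 was lower, with a median of 0.016. The median log2 difference, tendon minus bone, was 0.56 for the GTPases, -0.57 for the antiviral effectors, -0.96 for the transcription factors and -2.09 for antigen processing, against -0.06 over all genes tested.

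Gbp7, a guanylate-binding protein of the interferon-gamma response, had 19.8, 14.8 and 17.4 CPM in the naive tendons and 8.36, 8.15 and 9.66 CPM in the naive bones. Irgm2, an immunity-related GTPase that acts on vacuole membranes around intracellular microbes, had 41.0, 35.5 and 39.0 CPM in tendon against 26.0, 21.8 and 24.8 CPM in bone. For both genes every tendon library was above every bone library, and the differences were 0.99 ± 0.18 for Gbp7 (adjusted p = 2.97e-05) and 0.67 ± 0.16 for Irgm2 (adjusted p = 0.000789). Gbp5, Gbp6, Iigp1 and the antiviral genes Ifi44 and Ifit2 were also higher in tendon, with adjusted p values of 0.00212 to 0.0499. Irgm1, a regulator of the other immunity-related GTPases, was the 1 GTPase that was lower in tendon (-0.28).

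Oas3, an oligoadenylate synthetase that makes the messenger which activates RNase L, showed the widest gap, with 0.846, 0.156 and 0.532 CPM in naive tendon against 20.7, 32.5 and 33.1 CPM in naive bone. The difference was -5.78 ± 0.44 (adjusted p = 1.65e-10). Psmb8, an immunoproteasome subunit, had 10.5, 9.06 and 10.1 CPM in tendon and 35.1, 47.8 and 43.4 CPM in bone (-2.09 ± 0.19, adjusted p = 2.78e-09). The tendon libraries lay below all bone libraries for both genes. Tap1, which carries peptides into the endoplasmic reticulum, differed by -1.92 ± 0.21 (adjusted p = 4.27e-08), and Psmb9, the neighbouring immunoproteasome gene, by -2.18 ± 0.25 (adjusted p = 7.14e-08). Irf1, an interferon-induced activator, differed by -0.98 ± 0.13 (adjusted p = 5.94e-07) and Irf9 by -0.93 (adjusted p = 6.38e-07). Rsad2, the radical-SAM enzyme viperin, had 10, 7.44 and 11.6 CPM in tendon and 37.9, 46.1 and 99.0 CPM in bone. Cxcl9 and Cxcl10, ligands of Cxcr3, a chemokine receptor on T cells, passed in neither direction.

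Levels from here on are scaled within a tissue and differ from the joint CPM above. Joint CPM were a median 1.27 times the within-tissue CPM in tendon and 0.772 times in bone. With levels divided by exonic length, the order of the members also differed by tissue. These values per kilobase compare genes within a tissue only. Per kilobase, Bst2 (tetherin) led both tissues, with 17.5 CPM per kb in naive tendon and 41.9 CPM per kb in naive bone. In tendon it was followed by Ifit3 at 13.5, Igtp at 9.05 and Irgm2 at 8.27 CPM per kb, and Oas3 was last at 0.0573. In bone Isg15 followed at 33.6, Ifit3 at 21.5, Irf7 at 18.6 and Rsad2 at 18.1 CPM per kb, and Ifi44 was last at 0.52. Blood cell markers differed between the tissues as well. B cell markers summed to 302 to 403 CPM in naive bone and to 0.253 to 1.1 CPM over all tendon libraries, and neutrophil markers to 1990 to 9960 CPM over all bone libraries and to 0.339 to 10.1 CPM over all tendon libraries. Their part in the tissue difference was not tested. With total counts as the only scaling Ifit2 turned to -0.084.

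**Figure D1:**
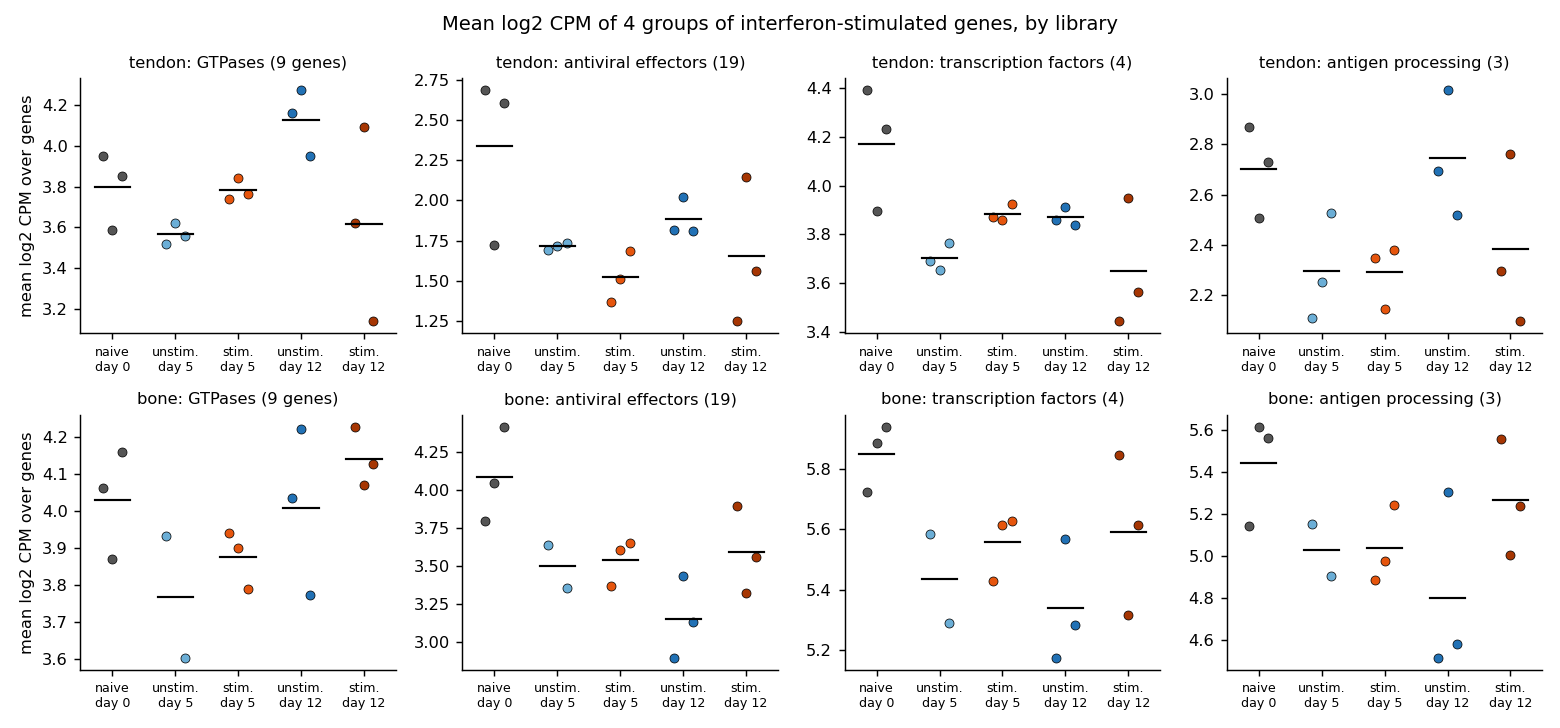
Level of 4 classes of interferon-stimulated genes (the chemokines are not shown) in every library, as the mean log2 CPM of its members (y axis, log2 scale), by group (x axis) for tendon and bone; points are libraries and lines mark group means. In tendon the antiviral effectors had their highest mean in the naive group, although naive sample 2 lay within the range of the later groups, and in bone they had their lowest mean in the unstimulated group at 12 days.

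In tendon at 5 days, stimulated against unstimulated, 1 of the 37 members rose and none fell. The member was Irgm2, beside 0.0351% of all genes tested that rose and 0.0234% that fell. Irgm2 had 46.1, 61.5 and 37.7 CPM in the stimulated tendons and 26.3, 24.4 and 20 CPM in the unstimulated ones, with means of 48.4 ± 12.1 and 23.5 ± 3.19 CPM (SD, n = 3 each). The lowest stimulated library was above the highest unstimulated library, and the log2 difference was 1.04 ± 0.16 (adjusted p = 0.0384). Irgm2 (chr11:58199618-58222782, plus strand, protein-coding) overlaps Igtp on the same strand and shares 162 exonic bases with it, of 3690 in Irgm2 and 2022 in Igtp, so reads in the shared part could be assigned to either.

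No other GTPase passed by edgeR, while limma-voom also called Irgm1 (0.33, adjusted p = 0.0249). Igtp had 17.8, 20.2 and 19.6 CPM with stimulation and 15.7, 17.5 and 13.0 CPM without, a log2 difference of 0.32. Irgm1 had 23.0, 24.0 and 19.9 CPM against 16.3, 18.6 and 14.4 CPM, a difference of 0.44 ± 0.12 (adjusted p = 0.304). In both genes the stimulated libraries lay above the unstimulated ones. Of the 9 GTPases, 7 had a fold change above 0 (median 0.18) and 3 did not overlap upward. Of the 19 antiviral effectors, 17 were below 0 (median -0.13), and 5 (Ifit1, Oasl1, Oasl2, Mx2 and Ifi44) did not overlap downward. Limma-voom called Oasl2 lower (-0.57, adjusted p = 0.0474). Over all genes tested the median was -0.0029, and 7.1% did not overlap upward and 5.78% downward. All 37 members together had a median of -0.09, with 4 at an unadjusted p under 0.05. Leaving out 1 library, the median lay between -0.14 (without unstimulated sample 1) and -0.029 (without stimulated sample 1), and that of the GTPases fell as low as 0.084 without unstimulated sample 2.

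Among the transcription factors, Irf9, which gives the interferon complex its DNA binding, was nearest to the threshold. It had 19.3, 19.9 and 17.1 CPM in the stimulated tendons and 13.5, 11.9 and 13.0 CPM in the unstimulated ones (0.55 ± 0.11, adjusted p = 0.109). Every stimulated library was above every unstimulated one, as for Irf1 and Stat2. DESeq2 (adjusted p = 0.00363) and limma-voom (adjusted p = 0.00111) called Irf9, and limma-voom called Irf1 (adjusted p = 0.0223). The antigen processing genes lay between -0.10 and 0.07, and Cxcl10 differed by 0.79 ± 0.48 with overlapping libraries. Osteoclast markers also differed between these groups, with 55.9, 49.2 and 75.9 CPM in the stimulated tendons and 87.1, 134 and 218.6 CPM in the unstimulated ones, without overlap. The mean log2 CPM of 8 osteoblast markers averaged 1.97 with stimulation and 3.28 without, and the libraries of the groups did not overlap, although their summed CPM did. The macrophage markers had means of 131 and 128 CPM. Their part in the members' levels was not tested. Leaving out 1 library at a time, the call of Irgm2 held only without stimulated sample 3 (1.2, adjusted p = 0.00663). With each of the other 5 libraries of the comparison left out the adjusted p was 0.0844 to 0.179, and with only the 6 compared libraries in the fit it was 0.251.

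**Figure D2:**
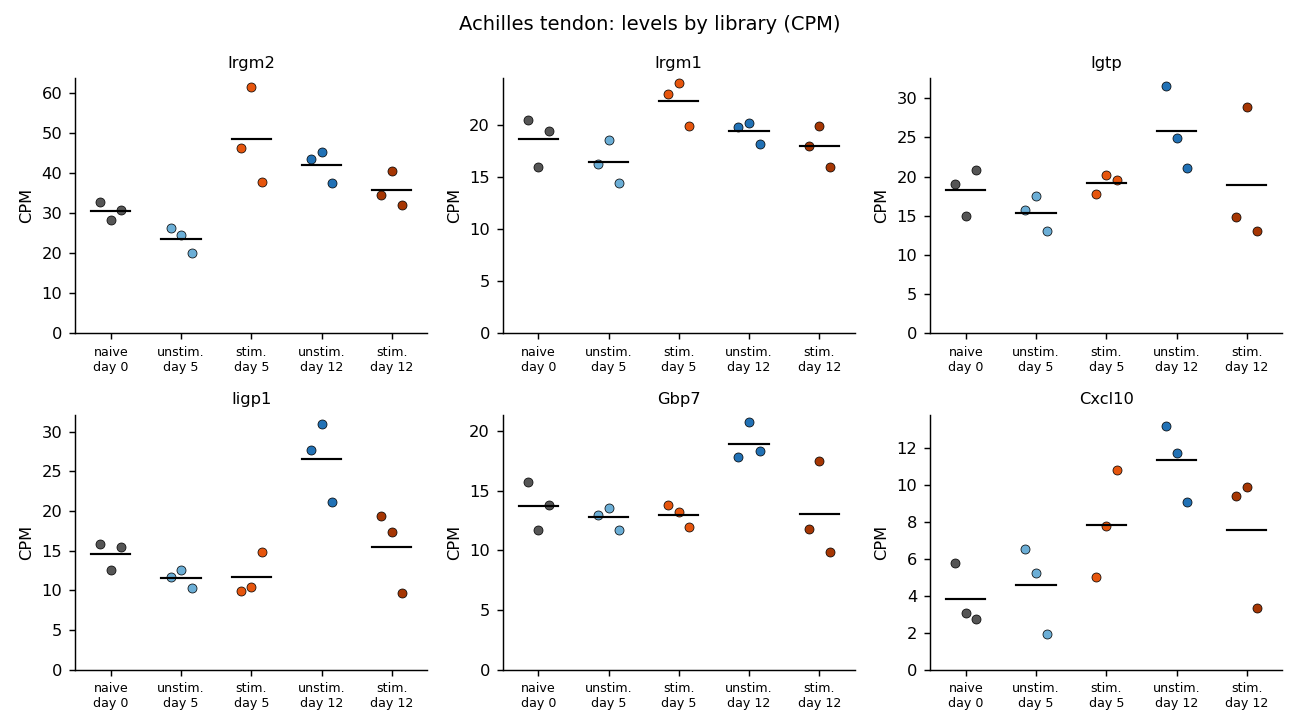
Level of 5 interferon-gamma GTPases and Cxcl10 in every tendon library (y axis, CPM; x axis, group); points are libraries and lines mark group means. Irgm2 was lowest in the unstimulated libraries at 5 days and highest in the stimulated ones, whereas Iigp1, Gbp7 and Cxcl10 had their highest mean in the unstimulated libraries at 12 days.

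In tendon at 12 days the members lay on the other side of 0, but no member passed. By edgeR's test 0 of 37 were called in either direction, beside 0.345% of all genes tested, 8 members had an unadjusted p under 0.05, DESeq2 called 1 (Iigp1, adjusted p = 0.0475) and limma-voom called 0. Fold changes were below 0 for 34 of the 37 members, with a median of -0.34 against 0.01 over all genes tested. Without stimulated sample 2 the median was -0.58, and without stimulated sample 3 it was -0.20. The 3 exceptions were Mx1 at 1.28, Oas3 at 0.73 and Irf9 at 0.0045.

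All 9 GTPases were below 0, with a median of -0.50 that became -0.89 without stimulated sample 2 and -0.24 without stimulated sample 3. Iigp1, an immunity-related GTPase, had 19.3, 17.3 and 9.72 CPM in the stimulated tendons and 27.7, 31.0 and 21.1 CPM in the unstimulated ones (-0.79 ± 0.23, adjusted p = 0.166). Gbp7 had 11.8, 17.5 and 9.85 CPM with stimulation against 17.8, 20.8 and 18.3 CPM without (-0.54 ± 0.17, adjusted p = 0.217). For both genes the stimulated libraries lay below the unstimulated ones, and with Oasl2 (-0.44) they were the 3 members that did not overlap downward, beside 7.04% of all genes tested. The antiviral effectors were below 0 in 17 of 19 cases with a median of -0.24. Stimulated sample 2 was the high one in its group: Igtp had 14.8, 28.9 and 13.0 CPM in the 3 stimulated tendons, and Gbp5 had 5.43, 7.39 and 3.5 CPM. Without stimulated sample 2, Igtp (-0.90), Gbp3 (-0.93), Gbp5 (-0.90), Gbp7 (-0.82, adjusted p = 0.00674) and Irf1 (-0.55) passed as lower. That library also had the highest sum of 8 endothelial markers in its group (675.3 CPM, against 501.5 and 332.7), and their part in the result was not tested.

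The effect of stimulation differed between 12 and 5 days for no member by edgeR's interaction test, nor for any gene (0%), with 6 members at an unadjusted p under 0.05 and 1 called by DESeq2 and 1 by limma-voom. The difference of Irgm2 was -1.28 ± 0.23 (adjusted p = 0.668). All 9 GTPases were below 0 in this difference, with a median of -0.59 (-0.90 without stimulated sample 2 and -0.39 without stimulated sample 3 of the 12-day group), while the antiviral effectors had 11 below and 8 above 0 (median -0.08).

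In bone at 5 days stimulation changed no member, and no gene at all passed (0% of genes tested). The unstimulated group had 2 libraries after the summing. The summed library held 224.7 CPM of 8 keratinocyte markers. Unstimulated sample 3 held 10.07 CPM, and the stimulated samples held 7.14, 5.578 and 7.514 CPM. The summed library also enters the comparison with naive bone and the interactions that use this group. The part of these markers in the members' levels was not tested. Fold changes were above 0 for 24 members and below 0 for 13, with a median of 0.07 that was -0.050 without unstimulated sample 3 and 0.22 without the summed pair, so its sign rests on 1 library, and 2 members had an unadjusted p under 0.05 (Ifit2, -0.33, and Irf1, 0.33). DESeq2 and limma-voom called 0 each.

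In bone at 12 days 33 of the 37 members had a higher fitted level with stimulation, and again none passed. edgeR called 0 members, beside 0% of all genes higher and 0.0371% lower. There were 8 members at an unadjusted p under 0.05, DESeq2 called 1 (Oas3, adjusted p = 0.0219) and limma-voom called 0. The median over the members was 0.29, against -0.01 over all genes tested, and became 0.45 without unstimulated sample 2 and 0.21 without stimulated sample 1. The antiviral effectors were above 0 in 18 of 19 cases with a median of 0.53, the antigen processing genes in 3 of 3 with a median of 0.44, the transcription factors in 4 of 4 with a median of 0.21, and the GTPases in 6 of 9 with a median of 0.20. Without stimulated sample 1 the first 3 of these medians fell to 0.30, 0.27 and 0.095. That of the GTPases fell to 0.07 without unstimulated sample 3.

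Oas3 had 21.5, 10.6 and 23.3 CPM in the stimulated bones at 12 days and 5.65, 10.2 and 8.29 CPM in the unstimulated ones (1.18 ± 0.35, adjusted p = 0.207). The groups did not overlap, although stimulated sample 2 lay only just above unstimulated sample 2. Isg15, a ubiquitin-like protein joined to other proteins, had 16.2, 7.57 and 11.7 CPM against 6.26, 7.74 and 7.08 CPM, and these groups overlapped (0.74). Oas3, Ifit3b and Ifi44 were the 3 members that did not overlap upward, beside 6.15% of all genes tested. Stimulated sample 2, the low one in its group, also had less marrow marker RNA than the others: its 9 B cell markers summed to 158.7 CPM, against 331.3 and 263.1 CPM in stimulated samples 1 and 3, and its 10 neutrophil markers summed to 3013 CPM, against 5377 and 6796 CPM. In the unstimulated group sample 2 had the most B cell marker RNA (207.9 CPM, against 79.36 and 99.56 CPM) and the most neutrophil marker RNA (3732 CPM, against 1991 and 2088 CPM). Their part in the members' levels was not tested.

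The difference between 12 and 5 days in bone passed for no member or gene by edgeR (0%), with 2 members at an unadjusted p under 0.05 and 0 called by DESeq2 or limma-voom. Fold changes were above 0 in 28 of 37 members.

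**Figure D3:**
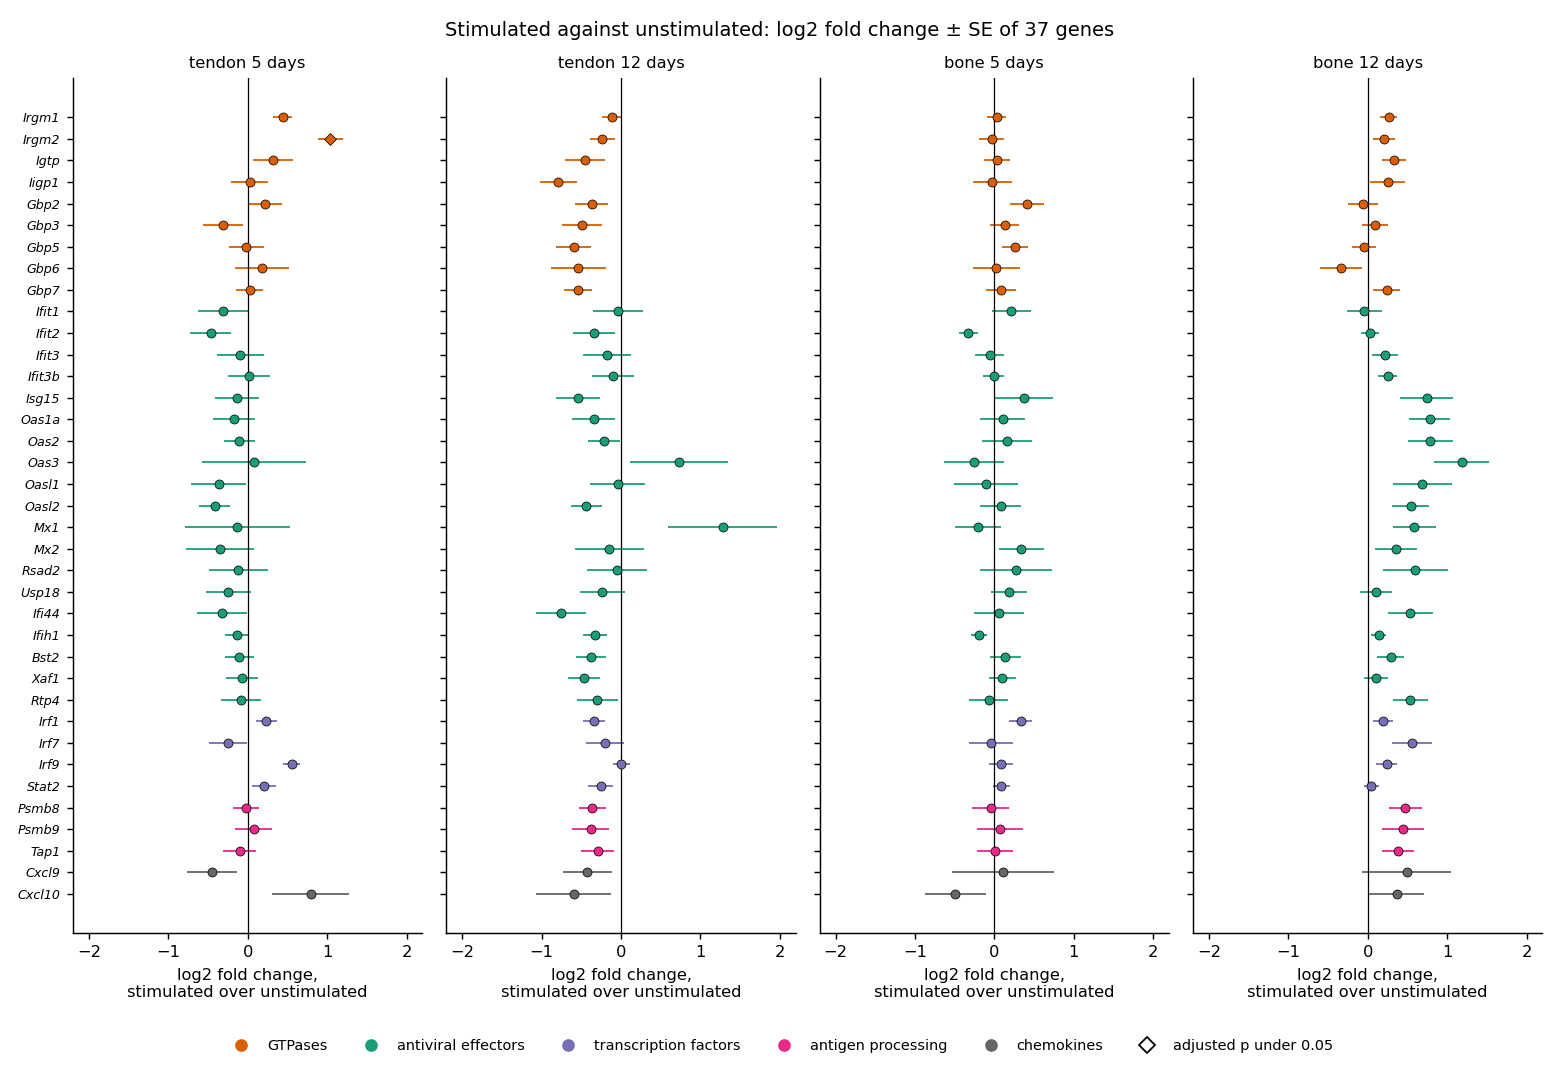
Log2 fold change with stimulation for each of the 37 members (x axis, log2 stimulated over unstimulated; bars are standard errors) at 5 and 12 days in tendon and bone, by class. At 12 days 34 of 37 members lay below 0 in tendon and 33 of 37 above 0 in bone, and Irgm2 in tendon at 5 days was the 1 member that passed the test.

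Set directly against each other, the effects of stimulation at 12 days in tendon and bone lay on opposite sides of 0 for most members. The interaction (tendon effect minus bone effect) was below 0 for 36 of 37 members, with a median of -0.63 against -0.03 over all genes tested. The median was -0.99 without tendon stimulated sample 2 and -0.47 without tendon stimulated sample 3. It passed for 0 members by edgeR, beside 0.176% of all genes higher and 0.0454% lower, and for 0 by DESeq2 and by limma-voom, with 20 members at an unadjusted p under 0.05. The share of all genes at that unadjusted cut is not given, so these 20 cannot be set against it. Gbp7 had the smallest unadjusted p, with -0.82 ± 0.25 (adjusted p = 0.185). All 9 GTPases (median -0.59), 18 of 19 antiviral effectors (median -0.61) and all 3 antigen processing genes (median -0.87) were below 0. Without tendon stimulated sample 2, 5 members passed. At 5 days the interaction passed for 0 members and 0% of genes, with 3 members at an unadjusted p under 0.05 and 1 each by DESeq2 and limma-voom. The value for Irgm2 was 1.10 ± 0.24 (adjusted p = 0.149), and 1 member passed without tendon stimulated sample 3.

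The larger changes were against naive tissue. The comparisons below share the naive libraries of their tissue, so their values stand side by side and do not support each other. In tendon, all 19 antiviral effectors had fold changes below 0 in each of the 4 comparisons with naive, although few passed in some of them: 0 in unstimulated tendon at 5 days, 3 in stimulated tendon at 5 days, 1 in unstimulated tendon at 12 days and 10 in stimulated tendon at 12 days. Their medians were -0.67 (unstimulated, 5 days), -0.93 (stimulated, 5 days), -0.47 (unstimulated, 12 days) and -0.77 (stimulated, 12 days), whereas the medians over all genes tested lay between -0.03 and 0.01.

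Unstimulated tendon at 5 days had 36 of 37 members below naive (median -0.46), but 0 passed by edgeR, beside 0.0351% of all genes in either direction. An unadjusted p under 0.05 was reached by 18 members, DESeq2 called 2 (Ifit1 and Irf9) and limma-voom 4, and 10 members did not overlap downward, beside 9.26% of all genes. Without unstimulated sample 3, Irf9 passed (-0.59, adjusted p = 0.0464). In stimulated tendon at 5 days, 1 member rose (Irgm2, 0.67 ± 0.16, adjusted p = 0.0468), beside 0.871% of all genes, and 3 fell, beside 1.42%. The 3 were Ifit1 (-1.48, adjusted p = 0.0322), Oasl2 (-1.06 ± 0.19, adjusted p = 0.0187) and Usp18 (-1.14, adjusted p = 0.0478). The calls varied with single libraries: 0 members passed without naive sample 1, naive sample 3, stimulated sample 1 or stimulated sample 2. Without naive sample 2, 7 passed, all lower, and without stimulated sample 3, 1 passed as higher and 2 as lower. The call of Irgm2 held only without stimulated sample 3 (adjusted p = 0.0221 by edgeR). With each other library of the comparison left out its adjusted p was 0.0866 to 0.174. With only the compared groups in the fit it was 0.0792.

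Ifit1, which binds viral RNA that lacks a normal cap, had 13.5, 4.95 and 12.1 CPM in the naive tendons and 3.59, 3.66 and 3.69 CPM in the stimulated ones at 5 days. Naive sample 2 lay inside the range of the later groups, which spanned 2.98 to 6.05 CPM over both arms and days. Oasl2, an oligoadenylate synthetase-like protein, had 18.2, 10.5 and 15.3 CPM in the naive tendons and 5.97, 7.6 and 7.52 CPM in the stimulated ones at 5 days. Usp18, the protease that takes Isg15 off proteins and damps the type I receptor, had 6.61, 2.67 and 5.17 CPM against 1.68, 2.79 and 2.08 CPM. In all 3 genes naive sample 2 was the lowest naive library, and for Usp18 it lay inside the range of the stimulated group. Naive sample 2 was also the lowest naive library for osteoclast markers (60.3 CPM, against 147.9 and 146.3 CPM) and osteoblast markers (7347 CPM, against 14240 and 19400 CPM). In naive tendon the osteoblast sum was nearly all the collagen gene Col1a1, so it need not mark osteoblasts. In joint CPM, which run higher in tendon, Col1a1 had 17900, 9250 and 24500 in naive samples 1 to 3. Bglap had 4.67, 2.03 and 6.31. Both lists had lower sums in every 12-day tendon than in any naive one, with 17.4 to 43.4 CPM of osteoclast and 1460 to 4780 CPM of osteoblast markers over both arms, and their part in the members' levels was not tested.

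In unstimulated tendon at 12 days, Iigp1 (0.87 ± 0.23, adjusted p = 0.0245) and Cxcl10 (1.55 ± 0.48, adjusted p = 0.0425) rose against naive, beside 8.17% of all genes. Ifit1 (-1.14 ± 0.31, adjusted p = 0.0267), Irf9 (-0.44 ± 0.11, adjusted p = 0.0202) and Stat2 (-0.48 ± 0.15, adjusted p = 0.0418) fell, beside 10.6%. These 5 of 37 members stand beside 18.8% of all genes called in either direction. DESeq2 also called Irgm2 (0.48, adjusted p = 0.0307) and Gbp7 higher, and Mx1 and Usp18 lower. Limma-voom also called Irgm2 (0.50, adjusted p = 0.00485), Igtp and Gbp7 higher. Iigp1 had 27.7, 31.0 and 21.1 CPM in the unstimulated tendons and 15.8, 12.5 and 15.4 CPM in the naive ones. Cxcl10, a chemokine induced by interferon-gamma, had 13.2, 11.7 and 9.09 CPM against 5.78, 3.04 and 2.73 CPM. Neither gene overlapped between the groups. Stat2 had 15.4, 17.4 and 16.4 CPM at 12 days without stimulation and 27.6, 17.4 and 23.8 CPM in the naive tendons.

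The 9 GTPases had a median of 0.37 in that comparison, with 8 above 0, while all 19 antiviral effectors were below 0. With total counts as the only scaling the median of all genes moved by -0.23 and that of the GTPases was 0.14. The members called numbered 0 without naive sample 3 or without unstimulated sample 1 or 2. There were 2 without naive sample 1, both higher, and 2 without unstimulated sample 3, 1 higher and 1 lower. Without naive sample 2 there were 8, all lower, so neither Iigp1 nor Cxcl10 passed there. Macrophage markers summed to 62.5 to 85.3 CPM in these tendons against 139 to 172 CPM in the naive ones, and T and NK cell markers to 1.44 to 1.57 CPM against 0.866 to 1.08 CPM. Muscle fibre markers summed to 165000 to 188000 CPM against 83800 to 123000 CPM. Their part in these values was not tested.

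Stimulated tendon at 12 days had 12 members that fell and 0 that rose, beside 12.5% and 11.8% of all genes tested. Of the 19 antiviral effectors 10 fell, of the 4 transcription factors 2 fell, and no GTPase, antigen processing gene or chemokine was called by edgeR as fitted. These classes were called in some alternatives: Irgm1, Gbp3, Psmb8 and Tap1 with total counts as the only scaling, Gbp3, Psmb8, Tap1 and Cxcl9 without stimulated sample 2, and Gbp3 by DESeq2. Stat2 had 11.7, 16.7 and 12.7 CPM, all below the naive libraries (-0.74 ± 0.15, adjusted p = 0.00651). Oasl2 had 6.38, 9.86 and 7.24 CPM, also all below the naive libraries (-0.91, adjusted p = 0.00705). Irf9 fell by 0.43 on the log2 scale (adjusted p = 0.0151), and Ifit1 (-1.17), Usp18 (-1.0), Isg15 (-0.97), Rtp4 (-0.92), Ifit2 (-0.90), Ifit3 (-0.90), Oas1a (-0.77), Xaf1 (-0.71) and Ifih1 (-0.44) were the others that fell. The GTPases had a median of -0.08 with 6 of 9 below 0, which was -0.40 without stimulated sample 2, 0.093 without stimulated sample 3, and -0.35 with all 9 below 0 under total counts. The number called was 2 without naive sample 1, naive sample 3 or stimulated sample 1, 4 without stimulated sample 3, 17 without naive sample 2 and 23 without stimulated sample 2. Total counts as the only scaling moved the median of all genes by -0.27 and gave 23 calls, limma-voom gave 5, and the fit of only the compared groups gave 1. The numbers of all genes called in these refits are not given, so the shifts may not be particular to the members.

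In bone the members that fell most were antiviral effectors, in the unstimulated group at 12 days. Of the 37 members 15 fell against naive, beside 11.7% of all genes tested, and 0 rose, beside 10.1%. The 15 were 11 of 19 antiviral effectors, 2 of 4 transcription factors, 1 of 3 antigen processing genes and 1 of 9 GTPases. All 19 antiviral effectors had fold changes below 0 with a median of -0.77, whereas the GTPases had a median of -0.07 and all genes tested a median of 0.03. Without naive sample 3 the antiviral median was -0.48, and the GTPase median was -0.29 without unstimulated sample 2 and 0.069 without unstimulated sample 3. The members whose groups did not overlap downward numbered 20, beside 20% of all genes.

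Oas3 (chr5:120753098-120777661, minus strand, protein-coding) had 26.2, 41.1 and 43.0 CPM in the naive bones and 5.65, 10.2 and 8.29 CPM in the unstimulated bones at 12 days. All later libraries were below the naive ones, and the fall was -2.18 ± 0.35 (adjusted p = 0.00288). Isg15 (chr4:156199424-156200818, minus strand, protein-coding) had 17.3, 18.8 and 40.1 CPM in the naive bones against 6.26, 7.74 and 7.08 CPM (-1.85 ± 0.34, adjusted p = 0.00435). Naive sample 3 was the high one, but the other naive libraries also lay above the 12-day group. Naive sample 3 also had the most erythroid marker RNA (53030 CPM, against 17660 and 19090 CPM in naive samples 1 and 2). It had the least muscle fibre marker RNA (136.5 CPM, against 13850 and 8006 CPM). Their part in the members' levels was not tested. Rsad2 (chr12:26442746-26456452, minus strand, protein-coding) had 47.9, 58.3 and 129.0 CPM against 12.2, 21.8 and 24.0 CPM (-2.01 ± 0.42, adjusted p = 0.00843). Oasl2 had 35.7, 53.1 and 58.3 CPM against 17.1, 27.0 and 21.5 CPM (-1.16 ± 0.23, adjusted p = 0.00661). Mx1, a dynamin-like GTPase that blocks virus replication, had 9.23, 14.1 and 14.2 CPM against 3.76, 7.43 and 3.81 CPM (-1.30 ± 0.27, adjusted p = 0.00679). Oas2 had 18.5, 33.6 and 29.2 CPM against 8.61, 13.5 and 10.3 CPM (-1.32 ± 0.28, adjusted p = 0.00889). In these 3 genes, too, the groups did not overlap.

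The other members that fell were Oas1a (-1.13), Irf7 (-1.09 ± 0.25, adjusted p = 0.0122), Irf9 (-0.56), Irgm1 (-0.45 ± 0.11, adjusted p = 0.013), Oasl1 (-1.51), Ifit3b (-0.43), Rtp4 (-0.78), Ifit1 (-0.71) and Tap1 (-0.65, adjusted p = 0.0381). Irf7, the factor that amplifies type I interferon, had 57.7, 70.0 and 83.4 CPM in the naive bones and 25.4, 43.3 and 30.1 CPM at 12 days. Irgm1, the GTPase that fell, had 34.4, 35.7 and 39.2 CPM against 24.4, 30 and 25.6 CPM. Both genes were lower in every 12-day library than in any naive one. The number of members called ranged from 8 without unstimulated sample 1 to 24 without unstimulated sample 2, and was 10 without naive sample 2, naive sample 3 or unstimulated sample 3. Oas3, Isg15, Rsad2, Mx1, Oas1a, Oas2, Oasl2 and Irf7 kept their call in each of the 14 alternatives run.

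**Figure D4:**
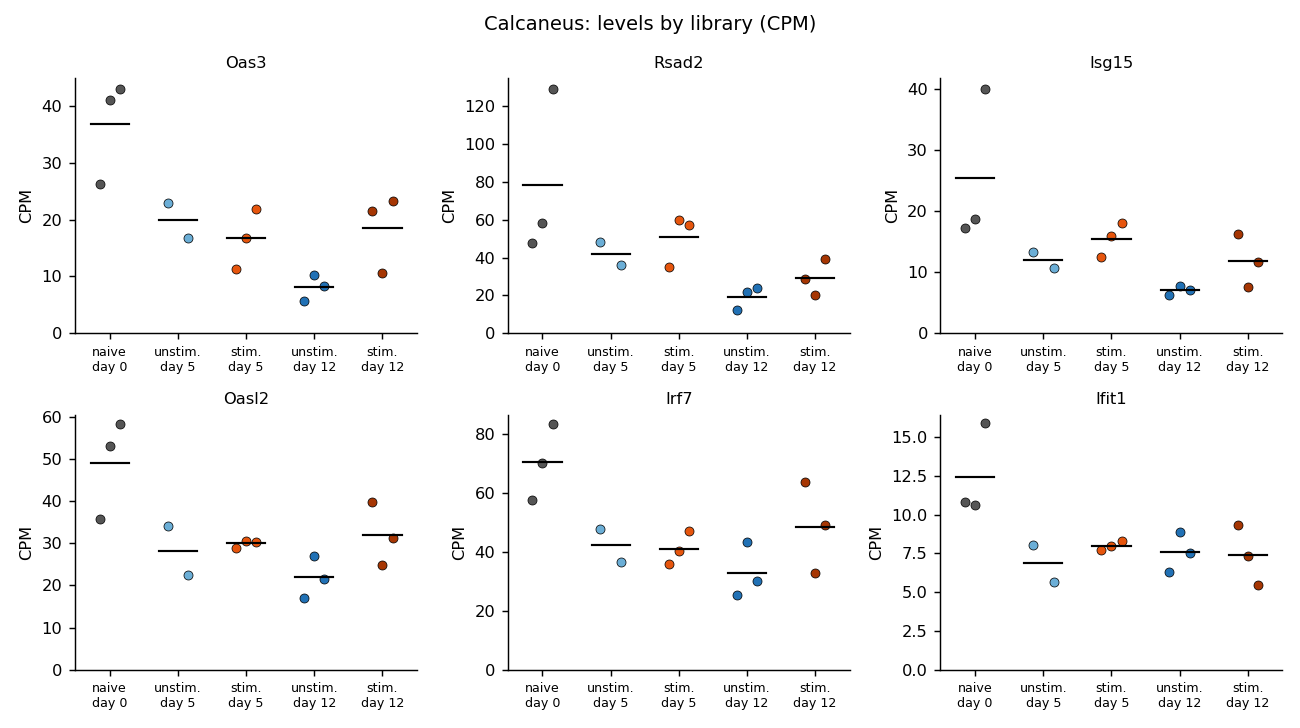
Level of 5 antiviral effectors and Irf7 in every bone library (y axis, CPM; x axis, group); points are libraries and lines mark group means. All 6 genes had their highest mean in the naive libraries and, except Ifit1, their lowest mean in the unstimulated libraries at 12 days, where Oas3 lay between 5.65 and 10.2 CPM against 26.2 to 43.0 CPM in the naive bones.

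Markers of several cell types differed between the same groups. Between naive bone and unstimulated bone at 12 days, the 9 B cell markers summed to 302 to 403 CPM against 79.4 to 208 CPM, the neutrophil markers had means of 6600 and 2600 CPM, and the 8 erythroid markers means of 29900 and 6400 CPM. T and NK cell markers had means of 71.0 and 39.9 CPM. The 11 macrophage markers did not fall with them, with means of 817 and 989 CPM. Markers of bone cells were lower too, without overlap: osteoclast markers summed to 5321, 5309 and 7134 CPM in the naive bones against 4297, 3879 and 3372 CPM, and osteoblast markers to 48550, 53510 and 51780 CPM against 33150, 35280 and 31940 CPM. The part of these cell types in the members' levels was not tested.

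**Figure D5:**
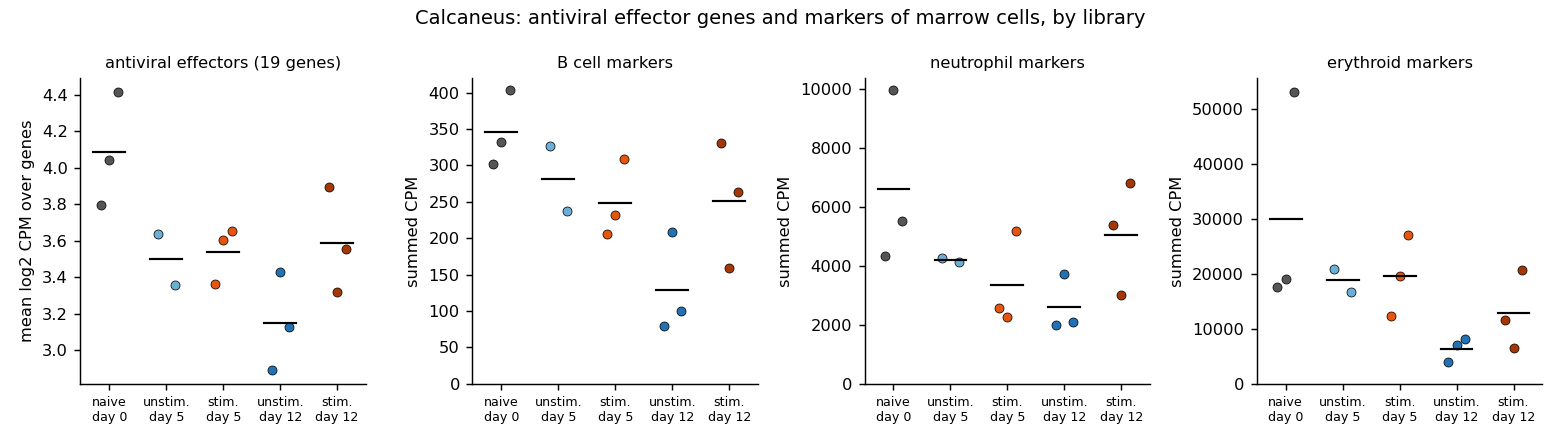
The first panel shows the mean log2 CPM of the 19 antiviral effectors in every bone library, and the others the summed CPM of markers of B cells, neutrophils and erythroid cells (linear y axes; x axis, group); points are libraries and lines mark group means. B cell, neutrophil and erythroid markers had their lowest means in the unstimulated libraries at 12 days, as the antiviral effectors did.

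No member passed against naive in the other 3 bone groups. Unstimulated bone at 5 days had 35 of 37 members below 0 (median -0.43, or -0.27 without naive sample 3), beside 0.435% of all genes called, with 15 members at an unadjusted p under 0.05, 1 called by DESeq2 and 0 by limma-voom. There, with 2 libraries in the group, 21 members did not overlap downward, beside 18.5% of all genes. Stimulated bone at 5 days had 32 members below 0 (median -0.42, or -0.27 without naive sample 3), beside 0.228% called, with 18 at an unadjusted p under 0.05 and 3 called by each of the other tools. Stimulated bone at 12 days had 27 below 0 (median -0.19, or -0.33 without stimulated sample 1 and -0.083 without naive sample 3), beside 4.54% called, with 11 at an unadjusted p under 0.05, 4 by DESeq2 and 2 by limma-voom. In that last group the antiviral effectors were below 0 in 19 of 19 cases (median -0.41), the GTPases above 0 in 7 of 9 (median 0.13), and 2 members passed without naive sample 1.

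Interferon transcripts themselves were at or near 0 in these libraries. Of 21 interferon ligand genes none passed the filter on low counts, and 15 were at 0 in every tendon library and 14 in every bone library. Ifng, the interferon-gamma gene, had 5 counts in all in tendon, at most 1 in a library, and 65 counts in bone over 13 of 14 libraries, at most 11 in a library. Ifnb1, interferon-beta, had 0 counts in tendon and 2 in bone. These counts are too low for a comparison between groups.

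Of the other interferon pathway genes (receptors and JAK-STAT, induction, feedback, antigen presentation and further interferon-stimulated genes), 92 were tested in tendon and 93 in bone. By edgeR, stimulation changed 0 of them at either day in either tissue, with 9 and 16 at an unadjusted p under 0.05 in tendon at 5 and 12 days and 3 and 27 in bone. In bone at 12 days 82 of the 93 had a fold change above 0.

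Against naive, 3 of 93 pathway genes rose and 28 fell in unstimulated bone at 12 days, beside 10.1% and 11.7% of all genes tested. Among the latter were Cmpk2 (-1.21, adjusted p = 0.00445), the tumour suppressor Pml (-0.84, adjusted p = 0.00488) and Irf8, a factor of myeloid and B cells (-1.12, adjusted p = 0.00521). Nlrc5, the activator of class I antigen presentation genes, did not pass (-0.55, adjusted p = 0.0686). Stimulated bone at 12 days had 1 of 93 that rose, beside 4.54% of all genes called in either direction. It was Tmem173, which encodes the DNA-sensing adaptor STING (0.47, adjusted p = 0.0478). In unstimulated tendon at 12 days 3 of 92 rose and 10 fell, beside 8.17% and 10.6% of all genes. Among those that fell was the receptor subunit Ifnar1 (21.7 against 29.3 CPM, -0.43 ± 0.11, adjusted p = 0.0212), while the feedback inhibitor Socs1 did not pass (1.77 ± 0.68, adjusted p = 0.0818). In stimulated tendon at 12 days 4 of 92 rose and 15 fell, beside 11.8% and 12.5% of all genes, and Ifnar1 was among those that fell (-0.39, adjusted p = 0.0229). In stimulated tendon at 5 days 2 of 92 fell, beside 1.42% of all genes, the RNA sensor genes Ddx58 and Dhx58. Between naive tissues, 13 of 94 were higher in tendon and 65 lower, beside 33.3% and 35% of all genes tested, with Ifngr1 (-0.90), Ifnar1 (-0.56) and Nlrc5 (-1.93) among the latter.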

How the data were processed

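Poly-A RNA-seq libraries of Achilles tendon and calcaneus were analysed from 1 gene table. The authors deposited expected counts, and 0 values in the table were not whole numbers, so none needed rounding. Per the submitters' processing notes, cutadapt 2.3, FastQC 0.11.8, STAR 2.7.8a, RSEM 1.3.3 and MultiQC 1.7 were used with GRCm38. Neither the gene annotation release nor the strandedness of counting is given in these sources. Counts of gene pairs that overlap or are near copies could be split by that counting: Irgm2 and Igtp, Ifit3 and Ifit3b, Psmb9 and Tap1, Rtp4 and Masp1, Irf9 and Rnf31, Irf7 and Phrf1, Cxcl10 and Art3, and those of Gbp6 and Oas1a with their paralogs.

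All 30 sample columns were used and taken to groups by their titles, and the near-identical pair was summed. Genes were kept by edgeR's filterByExpr (minimum count 10, minimum total 15). TMM factors, a robust quasi-likelihood fit and its F test were run in edgeR 4.0.16 (R 4.3.3) over all libraries of a tissue, or of both tissues for the comparison between naive tissues and the tissue interactions, giving 17 comparisons. SE is the log2 fold change divided by the root of F. Adjusted p values are Benjamini-Hochberg over all genes tested, at a threshold of 0.05. Log2 CPM used a prior count of 2. Alternatives were DESeq2 1.42.0, limma-voom (limma 3.58.1), other scalings, no count filter, only the compared groups, a replicate block and each library left out. The fit was tested on simulated data.

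The members and the lists of pathway genes and cell markers were chosen with earlier results of these data known. All members could be named, with full values for up to 6 per direction and comparison by smallest adjusted p, and pathway genes by the 3 smallest, plus Ifng, Ifnb1, Ifnar1, Ifngr1, Socs1 and Nlrc5 (1 further gene of that rule is not reported here). Replicates shared a number, but the labels used here do not say whether it pairs them. In none of 12 comparisons did every same-numbered pair correlate above 0.1, which cannot exclude pairing. Sequences and start sites are RefSeq's on GRCm38.p6. Motifs were searched on both strands, copies may overlap, and 7 members had no entry.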

Additional observations from a re-analysis of the deposited data

How the results depend on the processing

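Values below are the numbers of the 37 members called. The numbers of all genes called in the same refits are not given, so a shift may not be particular to the members. Other tools moved them most where few were called. DESeq2 called 2 in tendon at 5 days with stimulation, 1 in tendon and 1 in bone at 12 days, and against naive 2 (tendon unstimulated 5 days), 9 (unstimulated 12 days), 10 (stimulated 5 days), 1 (bone unstimulated 5 days), 3 (bone stimulated 5 days) and 4 (bone stimulated 12 days). It called 1 in the tendon day interaction and 1 in the tissue interaction at 5 days. Limma-voom gave 5 in tendon at 5 days, 4, 14 and 5 against naive in tendon (unstimulated 5 days, stimulated 5 days, stimulated 12 days), 3 and 2 in stimulated bone at 5 and 12 days, and 1 in each of those interactions. With only the compared groups fitted, tendon at 5 days gave 0, and stimulated tendon against naive 1 at 5 days and 1 at 12 days. Total counts as the only scaling, chosen after seeing the data, gave 11 and 23 in unstimulated and stimulated tendon at 12 days, and reversed Ifit2 between naive tissues (-0.084). Of the values of single members under alternatives, 657 kept direction and call, 188 lost the call and 1 reversed.

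Leaving out 1 library gave 0 to 1 in tendon at 5 days, 0 to 5 at 12 days and 0 in bone at both days. Against naive, tendon gave 0 to 1 (unstimulated 5 days), 0 to 8 (unstimulated 12 days), 0 to 7 (stimulated 5 days) and 2 to 23 (stimulated 12 days), and bone 0, 8 to 24, 0 and 0 to 2. It gave 21 to 25 between naive tissues, 0 in both day interactions, and 0 to 1 at 5 days and 0 to 5 at 12 days in the tissue interactions. The cause of these shifts was not tested.

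With the replicate number as a block, tendon gave 1 and 0 with stimulation at 5 and 12 days and, against naive, 0, 5, 3 and 9 in the order unstimulated 5 and 12 days, stimulated 5 and 12 days. In fits with bone the summed library has no single number, so the planned block was not run there. With that pair kept as 2 libraries, an alternative added after seeing the data, the block gave 16 in unstimulated bone and 1 in stimulated bone at 12 days against naive, 20 between naive tissues and 1 in the tissue interaction at 5 days. In 0 of 12 comparisons did every sample correlate best with its own number. Depth limits Oas3 in tendon, at 0.0909 to 0.672 CPM when scaled within the tissue, and the ligand genes.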
